A study of Mus musculus with 24 samples.

Results

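The genes described here are 52 genes of mitosis and the kinetochore, chosen by name for their part in cell division and read as rows of a gene expression table of C2C12 cells. They were found in all 52 cases among the 24043 gene symbols of the table, and all 52 passed the filter used for testing, a group mean of 1 FPKM or more in any of the groups, as did 12389 genes in all. FPKM is a gene's fragment count scaled to transcript length and to the mapped fragments of the library, so levels can be compared between genes. The members fall into groups by role: 11 genes of mitotic entry and its transcription factors, 4 of the spindle checkpoint, 4 of the anaphase-promoting complex and sister separation, 4 of the chromosomal passenger complex, 8 of the centromere and kinetochore, 7 kinesins, 5 spindle proteins, 3 of cytokinesis and 6 of chromosome structure.

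Mitosis begins when the kinase Cdk1 is switched on by its B-type cyclins. Chromosomes condense, kinetochores assembled on the centromeres attach them to spindle microtubules, and the spindle checkpoint holds the anaphase-promoting complex in check until every chromosome is attached. The genes of this machinery are transcribed mainly in G2 and M phase, under activators such as the B-Myb and FoxM1 proteins and, in cells that leave the cycle, under the repressor complex DREAM. Myoblasts leave the cell cycle before they fuse into myotubes, and a drop of mitotic transcripts is a textbook mark of that step.

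C2C12 is an established mouse myoblast line, and 8 RNA-seq libraries were made from it, 2 (replicates A and B) for each of 4 groups. Growing cells had medium with 10% fetal bovine serum and were kept at 21% oxygen (GM_NOR) or at 2% oxygen (GM_HYP). Cells in differentiation medium with 2% horse serum and an insulin, transferrin and selenium supplement were kept at 21% oxygen (DM_NOR) or at 2% oxygen (DM_HYP). The labels name no transgene or drug in any group, and the number of days in differentiation medium is not given in the sources used here. The labels call A and B biological replicates and say nothing of separate cultures, so p-values measure the spread between these libraries. The design asks how low oxygen alters the change of gene expression that differentiation medium brings, and here that question is put to the mitotic genes.

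The libraries held 14917 to 15672 genes above 0, summed to between 480000 and 534200 FPKM, and ranged from 0.633 to 1 in relative depth. The myoblast markers Myod1, Myf5, Des, Cdh15 and Chrna1 were present in every library, between 6.95 and 484.3 FPKM, but lower by the median at 2% oxygen. Their median was 78.7 and 66.3 FPKM in GM_NOR and 171.9 and 171.5 in DM_NOR. It was 17.9 and 15.5 in GM_HYP and 12.3 and 12.5 in DM_HYP. Markers of endothelium, leukocytes, epithelium and fat cells reached at most 0.204 FPKM, and Emr1 and Plin1 were at 0 throughout. The pair of DM_HYP libraries stood apart from each other in the mitotic genes, as described below, so every result that rests on them is given for both libraries apart. The coefficient of variation between replicates had a median over the members of 6.2% in GM_NOR, 8.92% in GM_HYP and 5.86% in DM_NOR, against 101.44% in DM_HYP.

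The sum of the 52 genes was 1183 and 1204 FPKM in GM_NOR, 712.1 and 637.1 in GM_HYP, 218.6 and 226.7 in DM_NOR, and 226.8 in DM_HYP A against 1286 in DM_HYP B. In GM_NOR, GM_HYP and DM_NOR the replicates lay close together and the groups did not overlap, while DM_HYP A was level with DM_NOR and DM_HYP B lay above GM_NOR. The median member was at 17.05 and 17.01 FPKM in GM_NOR, 9.70 and 8.75 in GM_HYP, 3.13 and 3.26 in DM_NOR, 3.49 in DM_HYP A and 20.9 in DM_HYP B. In these bulk libraries, fewer dividing cells and less mitotic RNA per dividing cell cannot be told apart. The plot of each member relative to its GM_NOR mean shows this order in its medians, and single members departed from it. GM_HYP lay under GM_NOR without overlap for 45 of 52 members (50% of all tested genes). DM_HYP B lay above both GM_NOR values for 31 members (44.9% of all tested genes) and under both for 15 (43.1%).

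**Figure D1:**
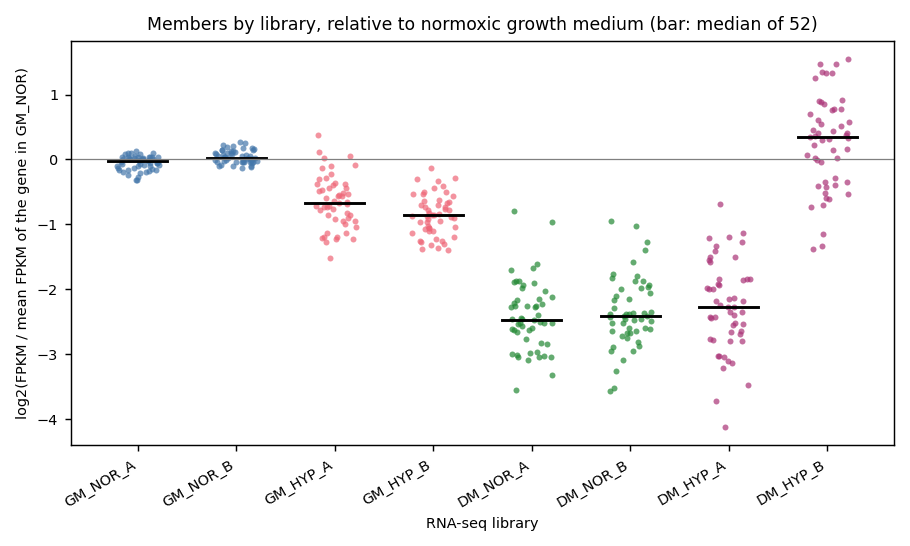
Each point is 1 of the 52 members in 1 library, as log2 of its FPKM over its mean FPKM in GM_NOR, and the black bar is the median of the 52. The bars of GM_HYP sit below 0, those of DM_NOR and DM_HYP A lie lowest, and that of DM_HYP B lies above 0.

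Differentiation medium at 21% oxygen was compared with growth medium at the same oxygen. Every one of the 52 members had both DM_NOR values under both GM_NOR values, where 52.9% of all tested genes did. The median member was 5.46-fold lower, from 1.83-fold for Smc4 to 11.6-fold for Cenpa. In the limma fit of all 8 libraries, with Benjamini-Hochberg adjustment, 42 members fell, 0 rose and 10 did not pass an adjusted p of 0.05, beside 41% of all tested genes that fell and 25.5% that rose. The median log2 change of FPKM + 1 was -2.01 for the members and -0.20 for all tested genes. The 8-library fit takes its spread from all groups, including the far-apart DM_HYP libraries. A fit of the 6 libraries without DM_HYP called all 52 members lower, beside 46.2% of all tested genes. With a single library left out of the 8-library fit, the count was 8 without either GM_NOR library, 7 without either DM_NOR library, 30 without either GM_HYP library and 52 without either DM_HYP library. Scaling the libraries by the median of ratios left 37 members called lower in the 8-library fit, while the split of all tested genes moved from 3161 higher and 5080 lower to 4298 higher and 3784 lower.

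Among the genes of mitotic entry, the kinase gene Cdk1 was at 39.45 and 39.50 FPKM in GM_NOR and at 7.10 and 6.50 in DM_NOR. The B-type cyclin gene Ccnb1 stood at 38.93 and 42.54 FPKM in GM_NOR and at 6.58 and 6.17 in DM_NOR. Groups did not overlap for either gene, and the change was -2.38 ± 0.56 (SE) for Cdk1 and -2.50 ± 0.65 for Ccnb1 on the log2 scale, with limma adjusted p-values of 0.00866 and 0.0127. The second B-type cyclin gene, Ccnb2, had the largest fall of this group, from 50.22 and 54.10 FPKM to 5.20 and 4.41, or 10.9-fold (adjusted p 0.00868, limma). Plk1, the polo-like kinase that drives entry and spindle assembly, fell from 23.57 and 20.25 FPKM to 2.72 and 2.57 (log2 change -2.65 ± 0.58, adjusted p 0.00652). In all, 9 of the 11 genes of this role fell in the 8-library fit, beside 41% of all tested genes, and Plk4 and Mybl2 did not pass.

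The activator gene Foxm1 was at 16.72 and 16.60 FPKM in GM_NOR and 3.15 and 3.21 in DM_NOR, and fell by 2.08 ± 0.64 on the log2 scale (limma adjusted p 0.0256). Mybl2, which encodes B-Myb, had low levels from the start, with 3.20 and 3.15 FPKM in GM_NOR and 1.04 and 1.06 in DM_NOR. Its groups did not overlap, but its change of -1.03 ± 0.61 did not pass with 8 libraries (adjusted p 0.174) and passed with 6 (adjusted p 0.00015), both by limma. The centriole duplication kinase gene Plk4 was the member of this group closest between media, at 6.66 and 7.63 against 3.68 and 2.96 FPKM. Its adjusted p was 0.111 with 8 libraries and 0.000817 with 6.

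All 4 spindle checkpoint genes fell in the 8-library fit, beside 41% of all tested genes. Their falls lay between 4.47-fold for Mad2l1 and 5.79-fold for Bub1b. Bub1b encodes the checkpoint protein BubR1 and was at 19.10 and 22 FPKM in GM_NOR and 3.53 and 3.57 in DM_NOR (log2 change -2.24 ± 0.66, limma adjusted p 0.022). All 4 genes of the anaphase-promoting complex group fell as well, beside the same 41%, with a median of 6.79-fold. Its activator gene Cdc20 went from 53.09 and 48.89 FPKM to 6.28 and 6.59 (log2 change -2.81 ± 0.79, adjusted p 0.0179). Ube2c, the ubiquitin-conjugating enzyme of the complex, was the most abundant member in growth medium, with 88.89 and 77.38 FPKM, and came to 10.36 and 12.97 in DM_NOR. In all of these 8 genes both DM_NOR values lay under both GM_NOR values, where 52.9% of all tested genes did so.

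The chromosomal passenger complex corrects wrong attachments and acts again in cytokinesis. All 4 of its genes fell in the 8-library fit, beside 41% of all tested genes. Its survivin gene Birc5 went from 70.68 and 68.25 FPKM in GM_NOR to 9.75 and 11.11 in DM_NOR (log2 change -2.63 ± 0.70, limma adjusted p 0.0142). Its kinase gene Aurkb went from 20.43 and 17.08 to 3.10 and 3.01 (log2 change -2.28 ± 0.74, adjusted p 0.0317). The least change in the complex was that of the scaffold gene Incenp, at 3.75-fold.

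Of the 8 centromere and kinetochore genes, 5 fell with 8 libraries and all 8 with 6, beside 41% and 46.2% of all tested genes. Cenpa, the histone variant that marks centromeres, had the largest change of all 52 members, from 46.72 and 44.02 FPKM to 3.85 and 3.96 (log2 change -3.24 ± 0.67, limma adjusted p 0.00472). The outer kinetochore complex that binds microtubules is built from the products of Ndc80, Nuf2, Spc24 and Spc25, and these 4 genes were 3.71-fold, 6.29-fold, 5.43-fold and 3.97-fold lower. Ndc80 itself stood at 10.33 and 11.68 against 2.94 and 3.00 FPKM, with an adjusted p of 0.0616 in 8 libraries and 2.76e-05 in 6. Cenpk, of the inner kinetochore, had the widest replicate spread of the members in these groups, at 2.58 and 3.85 against 0.877 and 1.58 FPKM (adjusted p 0.179 and 0.0478, limma with 8 and 6 libraries).

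The 7 kinesin genes encode proteins of the spindle and of chromosome movement. All 7 fell in the 8-library fit, beside 41% of all tested genes, between 3.98-fold for Kif11 and 8.87-fold for Kif2c. Kif11, the motor that pushes the spindle poles apart, was the kinesin gene nearest to the threshold, at 9.52 and 11.81 FPKM in GM_NOR and 2.62 and 2.73 in DM_NOR (log2 change -1.66 ± 0.61, limma adjusted p 0.0489). Of the 5 spindle proteins 4 fell, beside 41% of all tested genes, and Dlgap5 led them with an 8.11-fold difference. Of the 3 cytokinesis genes 2 fell, beside the same 41%, and Ect2, the exchange factor that positions the contractile ring, did not pass with 8 libraries.

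Chromosome structure genes were lower by a median of 4.54-fold, and 3 of 6 fell in the 8-library fit. That count is near the 41% of all tested genes that fell and does not set this role apart. The proliferation marker Mki67 fell from 15.08 and 21.34 FPKM to 3.17 and 3.48 (log2 change -2.13 ± 0.70, limma adjusted p 0.0326). Top2a, the DNA topoisomerase of chromosome segregation, fell from 36.37 and 45.42 to 8.56 and 9.81 (log2 change -2.03 ± 0.59, adjusted p 0.0203). Smc4, a condensin subunit, kept the highest share of its level, at 21.88 and 26.45 FPKM in GM_NOR and 13.92 and 12.54 in DM_NOR, which is 54.7% of the GM_NOR mean. Its adjusted p was 0.0893 with 8 libraries and 0.00496 with 6. Smc4 was the highest member by mean in DM_NOR, where Ube2c led in GM_NOR.

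**Figure D2:**
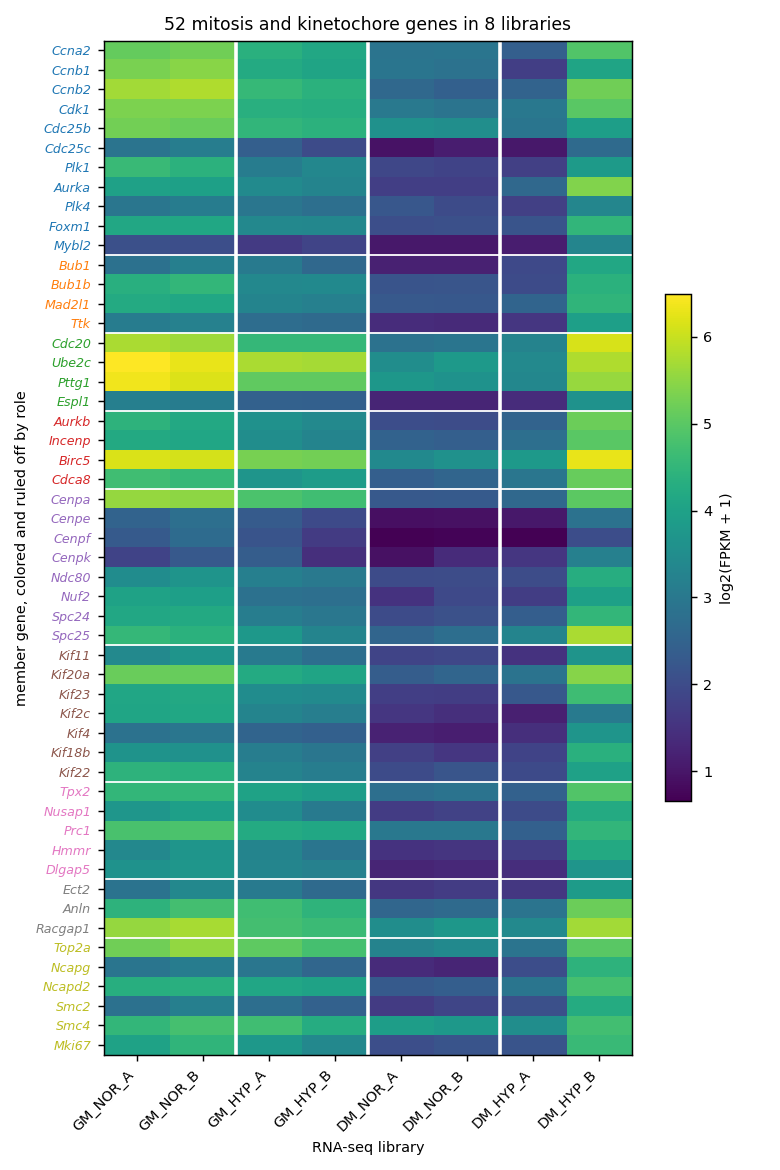
Heat map of log2(FPKM + 1) for the 52 members (rows, ordered and colored by role) in the 8 libraries (columns). The DM_NOR columns are darker than the growth medium columns in all 52 rows and the DM_HYP A column in all but Cenpk, and the DM_HYP B column is brighter than both GM_NOR columns in 31 rows.

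Low oxygen in growth medium went with lower levels of most members, though by less than differentiation medium did. Both GM_HYP values lay under both GM_NOR values for 45 of 52 members, where 50% of all tested genes did so. The exceptions were Bub1, Plk4, Cenpk, Ect2, Anln, Ncapg and Smc4. The median member was at 60.3% of its GM_NOR mean, from 38.4% for Plk1 to 99.8% for Anln. In the 8-library limma fit 0 members passed an adjusted p of 0.05, beside 28% of all tested genes that fell, and 1 had an unadjusted p under 0.05, where 33.6% of all tested genes were lower at that level. In the fit of the 6 libraries without DM_HYP, 43 members fell and 0 rose, beside 37.1% of all tested genes that fell, and with 1 further library left out in turn 34 to 43 fell. The median log2 change was -0.67 for the members and -0.14 for all tested genes.

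DM_NOR was lower still than GM_HYP, without overlap in 52 of 52 members, where 49.9% of all tested genes showed that order. For 45 members GM_HYP thus lay between GM_NOR and DM_NOR, and for the other 7 it overlapped GM_NOR. The share of all tested genes with this joint order was not counted, so it is not known whether the order sets the members apart.

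Plk1 had the largest difference, with 7.63 and 9.18 FPKM in GM_HYP against 23.57 and 20.25 in GM_NOR. Its log2 change was -1.29 with an SE of 0.12 and a limma adjusted p of 0.000399 in 6 libraries, against an SE of 0.58 and 0.123 in 8. The B-type cyclin genes were also low, with Ccnb1 at 17.74 and 15.70 FPKM, or 41.0% of GM_NOR, and Ccnb2 at 22.50 and 19.72 FPKM, or 40.5%. Cdk1 stood at 19.14 and 18.46 FPKM, 47.6% of its GM_NOR mean. These 4 genes carry mitotic entry, and 10 of the 11 genes of that role fell with 6 libraries, beside 37.1% of all tested genes. The exception was Plk4. Foxm1 came to 9.43 and 9.25 FPKM in GM_HYP, or 56.0% (log2 change -0.77, adjusted p 0.000373 with 6 libraries and 0.372 with 8, limma).

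The checkpoint, anaphase and passenger genes fell in 11 of 12 cases with 6 libraries, beside 37.1% of all tested genes, and in 0 with 8. Bub1b was at 9.34 and 9.80 FPKM, 46.6% of GM_NOR, while the checkpoint kinase gene Bub1 was at 7.20 and 5.21 FPKM against 6.10 and 8.08 and overlapped. Cdc20 was at 22.31 and 22.23 FPKM, 43.7% of GM_NOR, and the separase inhibitor gene Pttg1 was at 32.73 and 32.69, or 42.9%. The 4 passenger genes lay close together, at 54.1% to 57.3%. By limma, Cdc20 had an adjusted p of 0.000104 with 6 libraries and 0.281 with 8, and Birc5 of 0.000383 and 0.356.

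Kinetochore genes ranged widely. Nuf2 was at 6.09 and 5.94 FPKM, 40.9% of GM_NOR, and Spc24 at 7.77 and 6.87, or 42.9%. Their partner Ndc80 was at 7.96 and 7.10 FPKM, or 68.4%, and Cenpk at 4.16 and 1.71, which spans its GM_NOR values. Cenpa, which had the largest change with differentiation medium, was at 27.58 and 25.10 FPKM, or 58.1%. Of the 8 genes, 7 fell with 6 libraries, beside 37.1% of all tested genes. All 7 kinesin genes did so as well, between 40.7% for Kif22 and 71.3% for Kif4.

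Cytokinesis and chromosome structure genes had the smallest median differences of the roles, 1.25-fold and 1.29-fold. Anln, which encodes the ring protein anillin, was at 25.04 and 21.01 FPKM in GM_HYP and 20.53 and 25.62 in GM_NOR, so that the means were equal within the replicate spread. Racgap1, the partner of Kif23 in the central spindle, was the single cytokinesis gene that fell with 6 libraries, to 51%. The condensin genes Ncapg, Smc2 and Smc4 did not pass, while Ncapd2 did at 82.4%. Mki67 stood at 12.56 and 9.38 FPKM, or 60.2% of GM_NOR (log2 change -0.68, adjusted p 0.0281 with 6 libraries, limma).

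**Figure D3:**
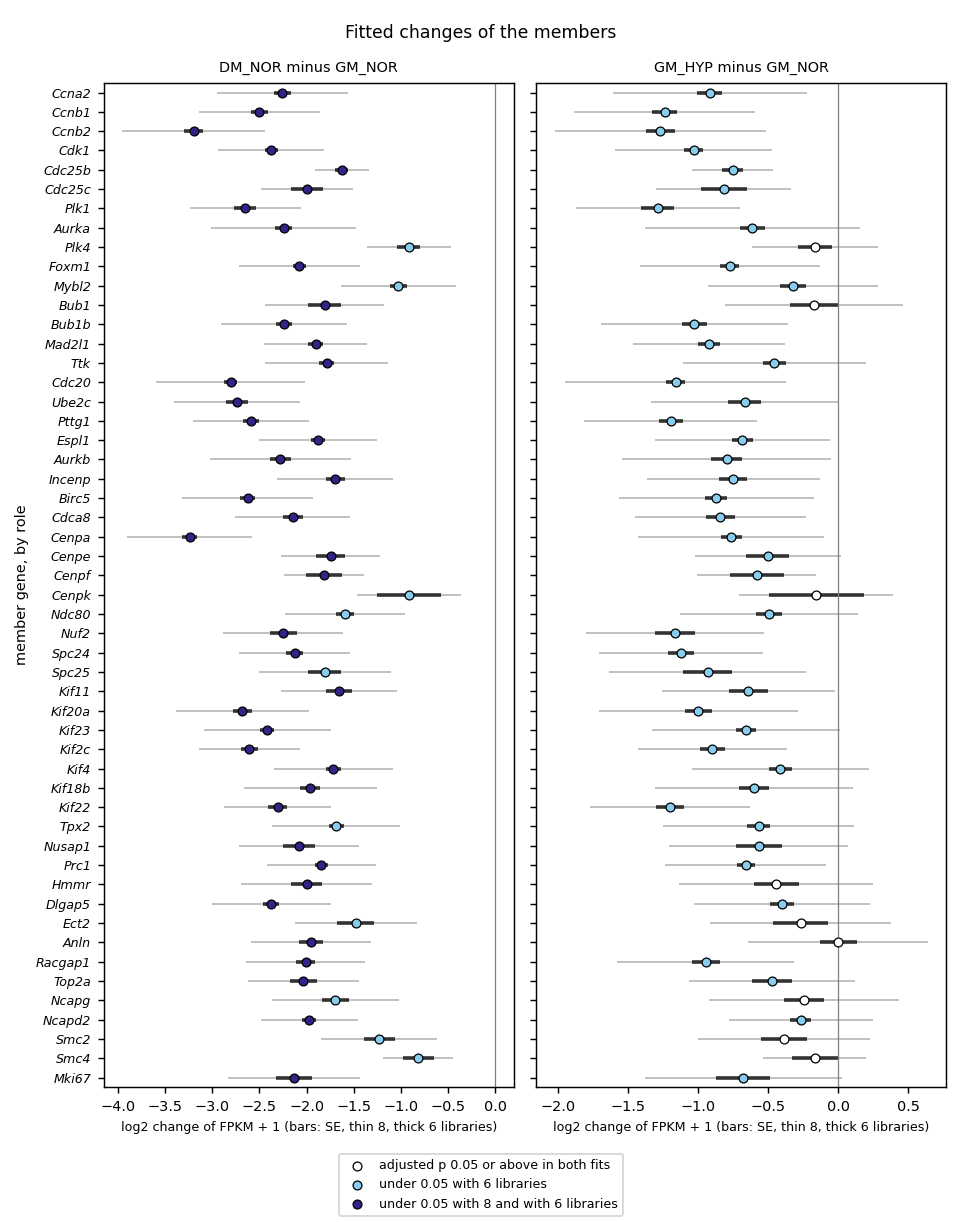
Fitted log2 changes of FPKM + 1 for each member (points), DM_NOR minus GM_NOR at left and GM_HYP minus GM_NOR at right, with the SE of the 8-library fit (thin bars) and of the 6-library fit (thick bars). All 52 points at left lie under 0, with dark points for the 42 members that passed in both fits, and at right 43 members passed in the 6-library fit alone.

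In differentiation medium at 2% oxygen the replicates stood apart. All 52 members were higher in DM_HYP B than in A, where 63.2% of all tested genes were. Of the members, 51 were at least 2-fold higher on the scale of FPKM + 1, where 4.45% of all tested genes were. The remaining member, Cdc25b, sat just under that line at a log2 difference of 1.00 (2.15-fold in FPKM, from 6.61 in A to 14.20 in B). The median ratio of B to A was 6.08, and the highest was 7.95, for Cdc20 (8.67 and 68.99 FPKM). Within GM_NOR, GM_HYP and DM_NOR, 0 members differed 2-fold between replicates in either direction on the scale of FPKM + 1. In plain FPKM 1 did, Cenpk in GM_HYP, at 2.43-fold. With 1 library on each side, no test of B against A was made.

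The split was broad over roles, with median ratios of B to A from 5.14 for chromosome structure to 6.54 for kinesins. Among the 500 tested genes with the largest B minus A difference were 51 of the members. Of 23 S-phase genes, 21 were at least 2-fold higher in B (median log2 difference 1.59), as were 49 of 85 other mitotic genes (median 1.27). For 12 hypoxia target genes the median was -0.40, with 0 of them 2-fold apart. For 10 myotube genes it was -0.54, and for 10 commonly used reference genes 0.12. The relative depth was 1 in A and 0.633 in B. The part of depth, of culture or of any other difference between these libraries in the split was not tested.

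DM_HYP A resembled DM_NOR in its mitotic genes. The ratio of A to the DM_NOR mean had a median of 1.15 over the members, from 0.368 for Ccnb1 to 2.23 for Aurka. A was above both DM_NOR values for 29 members (51.1% of all tested genes) and under both for 16 (43.4%). A lay under both GM_HYP values for 51 of 52 members, all but Cenpk, where 44.3% of all tested genes did. Cdk1 was at 6.89 FPKM in A, beside 7.10 and 6.50 in DM_NOR, and Foxm1 at 3.51 beside 3.15 and 3.21.

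DM_HYP B lay nearer to growth medium than to DM_NOR by the median ratio. B lay above both DM_NOR values for 52 of 52 members (57.2% of all tested genes), with a median ratio of 6.74. It also lay above both GM_HYP values for 47 (55.4%), with a median ratio of 2.07. The exceptions to the latter were Ccnb1, Cdc25b, Cenpf, Kif2c and Top2a, of which Cdc25b and Kif2c were under both, as were 35.7% of all tested genes. Compared with GM_NOR, B was higher than both libraries for 31 members (44.9% of all tested genes) and lower than both for 15 (43.1%), with a median ratio of 1.27. The 15 lower genes were Ccna2, Ccnb1, Ccnb2, Cdk1, Cdc25b, Cdc25c, Plk1, Cenpa, Cenpf, Kif2c, Kif22, Top2a, Prc1, Ube2c and Pttg1.

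Levels in B were uneven among the genes of mitotic entry. The ratio of B to the GM_NOR mean was 0.386 for Ccnb1, 0.605 for Plk1, 0.785 for Cdk1 and 1.29 for Foxm1, against 2.78 for Mybl2 and 2.78 for Aurka. Among the condensin genes it was 2.92 for Ncapg, 2.52 for Smc2 and 1.05 for Smc4.

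**Figure D4:**
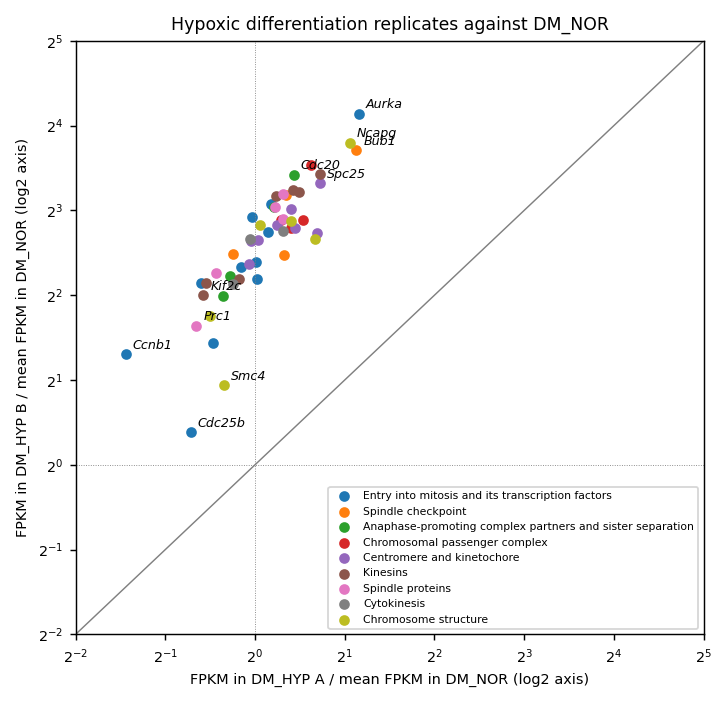
Each point is a member, colored by role, with the ratio of DM_HYP A to the DM_NOR mean across and that of DM_HYP B upward, both on log2 axes; the line marks equal ratios. All 52 points lie above the line, with Ccnb1 farthest left at 0.368 and Aurka highest at 17.6.

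Aurka, the kinase that matures the spindle poles, was the member farthest above DM_NOR in both DM_HYP libraries. It was at 15.03 and 14.57 FPKM in GM_NOR, 9.97 and 8.76 in GM_HYP, 2.35 and 2.32 in DM_NOR, 5.19 in DM_HYP A and 41.08 in DM_HYP B. Bub1 was at 2.81 in A and 16.83 in B against 1.28 and 1.29 FPKM in DM_NOR, and the condensin gene Ncapg at 3.07 and 20.53 against 1.57 and 1.38. For these 3 genes both DM_HYP values were above both DM_NOR values, which does not set them apart. A was above both DM_NOR values for 29 of 52 members and 51.1% of all tested genes, and B for 52 and 57.2%. Ccnb1 differed from them, at 2.35 FPKM in A and 15.73 in B, on either side of its DM_NOR values of 6.58 and 6.17. Over the 52 members, the change from DM_NOR A to DM_HYP A and that from DM_NOR B to DM_HYP B, which share no library, had a Pearson's r of 0.786 and a Spearman's rho of 0.771 across genes, against 0.869 and 0.889 over all tested genes. Genes are not independent replicates, and these values describe the order of the members only.

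With both DM_HYP libraries in the 8-library limma fit, the DM_HYP to DM_NOR comparison called 4 members higher and 0 lower, beside 37.5% of all tested genes called higher. The 4 were Aurka (log2 change 2.28 ± 0.77, adjusted p 0.0357), Bub1 (1.85 ± 0.64, 0.0383), Ncapd2 (1.48 ± 0.52, 0.0402) and Ncapg (1.92 ± 0.68, 0.0419). Without DM_HYP B, 12 members were higher and 7 lower (36.4% and 30.8% of all tested genes), and without DM_HYP A all 52 were higher (43.2%). The remaining DM_HYP library is then assumed to vary like the other groups. With any of the other 6 libraries left out, 0 members passed.

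Against GM_HYP, the 8-library fit called 0 members higher and 1 lower, beside 23.3% and 17.6% of all tested genes. The member that fell was Cdc25b, a phosphatase that activates Cdk1, at 21.60 and 20.04 FPKM in GM_HYP and 6.61 and 14.20 in DM_HYP (log2 change -1.02 ± 0.29, limma adjusted p 0.0298). Both DM_HYP values lay under both GM_HYP values. Without DM_HYP B, 49 members were lower and 0 higher (21.7% of all tested genes lower). Without DM_HYP A, 43 were higher and 1 lower (33.8% of all tested genes higher). The direction of this comparison therefore turned with the library left out, and with any of the other 6 libraries left out 0 members passed.

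The interaction asks whether the change with differentiation medium differed between 2% and 21% oxygen. It was above 0 for 52 of 52 members and for 7818 of all 12389 tested genes. The median on the log2 scale was 1.90 for the members against 0.27 for all tested genes. In the 8-library limma fit 1 member passed, where 35.4% of all tested genes were positive and called. That member was Spc24 (2.53 ± 0.83, adjusted p 0.0393). Without DM_HYP B, 33 members passed with a positive value (37.5% of all tested genes) and the median was 0.78, and without DM_HYP A all 52 did (44.5%) with a median of 3.05. With any of the other 6 libraries left out, 0 members passed. In the 8-library fit 19 of 52 members had a positive value with an unadjusted p under 0.05, where 39.7% of all tested genes did, so this count does not set the members apart.

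Other genes of the pathway were taken from a separate list. Of 85 tested mitotic genes that are no members, 47 fell and 4 rose between GM_NOR and DM_NOR with 8 libraries (median log2 change -0.99), beside the 41% and 25.5% of all tested genes given above. The 4 that rose were the augmin subunit genes Haus2 and Haus7 and the anaphase-promoting complex subunit genes Anapc10 and Cdc27, by 0.38 to 0.78 on the log2 scale. Between GM_NOR and GM_HYP, 9 of the 85 fell with 8 libraries and 39 with 6, where 28% and 37.1% of all tested genes did. Those 9 included the checkpoint genes Bub3 (60.7% of GM_NOR) and Mad1l1 (42.3%). Their partners among the members are Bub1, at 87.6% of GM_NOR, and Mad2l1, with a mean of 8.52 FPKM in GM_HYP against 17.02 in GM_NOR. Of 23 S-phase genes 10 fell and 0 rose between GM_NOR and DM_NOR, with a median log2 change of -1.07. That share, 43.48%, is near the 41% of all tested genes that fell. With 6 libraries 23 of 23 fell, beside 46.2% of all tested genes.

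Genes of cell cycle exit are given beside the members, and their part in the results was not tested. The Cdk inhibitor gene Cdkn1a, which encodes p21, was at 64.4 and 55.3 FPKM in GM_NOR, 242.2 and 241.0 in GM_HYP, 947.2 and 983.6 in DM_NOR, and 256.8 and 363.8 in DM_HYP A and B. The 5 genes of this list did not move one way between A and B, with a median log2 difference of 0.10 for B minus A. Ccnd1, the D-type cyclin gene, was at 11.89 FPKM in A and 24.78 in B, and the Cdk inhibitor gene Cdkn1c at 9.18 in A and 3.48 in B. Cdkn1b was at 44.91 and 30.88 FPKM and Ccnd3 at 84.97 and 91.45. For 10 genes of the DREAM and RB proteins the median B minus A difference was 0.72, and 3 were at least 2-fold higher in B. Within that list the pocket protein gene Rbl2 was at 20.73 and 20.86 FPKM and the DREAM subunit gene Lin54 at 1.97 and 5.20. Myog, the myotube regulator, was at 2576 and 2642 FPKM in DM_NOR but 4.49 and 2.14 in DM_HYP A and B, and 10 of 10 myotube genes fell between DM_NOR and DM_HYP in the 8-library fit, beside 27.7% of all tested genes.

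Across the 8 libraries the members followed each other closely. The Pearson's r of each member's log2(FPKM + 1) with the mean of the other members ran from 0.781 (Cdc25b) to 0.997 (Foxm1), with a median of 0.974. These libraries share the split between DM_HYP A and B and the media groups, so r describes that common pattern. The 8 genes outside the list with the nearest pattern, of 8788 with a mean of at least 5 FPKM, were Ncaph (0.996), Tacc3 (0.996), Fam64a (0.993), Troap (0.986), Cdca3 (0.984), Spag5 (0.983), Plat (0.983) and Ckap2l (0.982). Ncaph encodes a condensin subunit, and Plat encodes the secreted tissue plasminogen activator.

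The promoters of the members were searched for the sequence elements known from G2 and M phase genes, since the members moved together. RefSeq promoter windows of the GRCm38.p6 build, from 250 bases before to 50 after the annotated start, matched 42 of 52 members by symbol, in 46 windows. Ccna2, Cdc25c, Aurkb, Incenp, Spc24, Kif20a, Tpx2, Foxm1, Smc4 and Dlgap5 were not matched. The CHR element, at which DREAM and B-Myb complexes bind, was taken as TTTGAA or TTCGAA, and the NF-Y box as CCAAT, each on either strand. A CHR match was in 73.9% of the members' windows, against 13.2% of the windows of other tested genes and 19.2% of all 32851 windows. An NF-Y box was in 78.3%, against 37.5% and 37.4%. Both were in 67.4% of the members' windows, against 5.2% and 7.5%. An E2F-type match (TTTCCCGC, TTTGGCGC or TTTCGCGC) was in 6.5%, against 3.4% and 1.8%. Of 46 CHR matches 1 overlapped an NF-Y box.

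The windows from 150 bases before to 50 bases after the start are shown for 6 members with a CHR match and, for contrast, for Ccnb1, which has none in its window. They are written 5′ to 3′ on the strand of the gene, with CHR hexamers and NF-Y boxes (CCAAT, or ATTGG where the box lies on the other strand) in capitals.
Mki67 (chr7:135716330-135716529, minus strand): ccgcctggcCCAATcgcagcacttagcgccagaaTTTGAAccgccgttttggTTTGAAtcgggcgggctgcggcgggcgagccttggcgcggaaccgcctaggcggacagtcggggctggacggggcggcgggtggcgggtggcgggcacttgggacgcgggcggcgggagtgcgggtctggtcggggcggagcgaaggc
Cdk1 (chr10:69352863-69353062, minus strand): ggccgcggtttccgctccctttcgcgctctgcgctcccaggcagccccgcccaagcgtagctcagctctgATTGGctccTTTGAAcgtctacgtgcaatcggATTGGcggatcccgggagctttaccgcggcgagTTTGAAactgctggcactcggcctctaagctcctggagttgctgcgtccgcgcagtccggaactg
Plk1 (chr7:122159285-122159484, plus strand): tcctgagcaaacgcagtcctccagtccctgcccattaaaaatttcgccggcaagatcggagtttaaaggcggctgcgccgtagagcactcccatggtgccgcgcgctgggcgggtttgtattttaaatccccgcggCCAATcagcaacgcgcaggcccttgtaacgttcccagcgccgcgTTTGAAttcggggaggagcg
Cdc20 (chr4:118437294-118437493, minus strand): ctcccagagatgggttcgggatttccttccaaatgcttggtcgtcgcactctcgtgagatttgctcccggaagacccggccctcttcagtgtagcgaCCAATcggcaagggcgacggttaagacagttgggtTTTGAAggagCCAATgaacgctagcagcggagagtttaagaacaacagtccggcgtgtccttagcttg
Bub1b (chr2:118598061-118598260, plus strand): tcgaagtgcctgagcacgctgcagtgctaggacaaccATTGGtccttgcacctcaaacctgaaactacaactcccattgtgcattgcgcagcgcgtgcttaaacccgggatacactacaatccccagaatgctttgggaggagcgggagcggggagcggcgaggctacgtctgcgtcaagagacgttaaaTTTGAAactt
Cenpa (chr5:30666736-30666935, plus strand): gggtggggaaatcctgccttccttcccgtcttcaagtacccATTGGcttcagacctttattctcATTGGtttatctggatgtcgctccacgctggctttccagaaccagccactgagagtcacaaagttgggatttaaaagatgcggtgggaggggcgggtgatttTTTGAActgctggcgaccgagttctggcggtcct
Ccnb1 (chr13:100786437-100786636, minus strand): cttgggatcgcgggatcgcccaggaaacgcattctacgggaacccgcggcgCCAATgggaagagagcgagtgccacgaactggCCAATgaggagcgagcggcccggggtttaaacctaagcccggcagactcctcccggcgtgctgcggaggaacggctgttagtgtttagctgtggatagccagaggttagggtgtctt

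In these windows all CHR hexamers of the Mki67, Cdk1 and Cdc20 promoters lie ahead of the start, and those of Plk1, Bub1b and Cenpa lie after it. Bub1b has another CHR match further upstream than the printed stretch. Matches were counted per window, and Cenpk, Ect2 and Prc1 have more than 1 overlapping window, so the 46 CHR matches are 43 distinct positions and the 77 NF-Y boxes are 73. Counted this way, 32 of 46 CHR matches began between 30 bases before and 50 after it, and 43 of 77 NF-Y boxes between 90 and 10 bases before it. These positions were summarised after the matches had been seen.

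**Figure D5:**
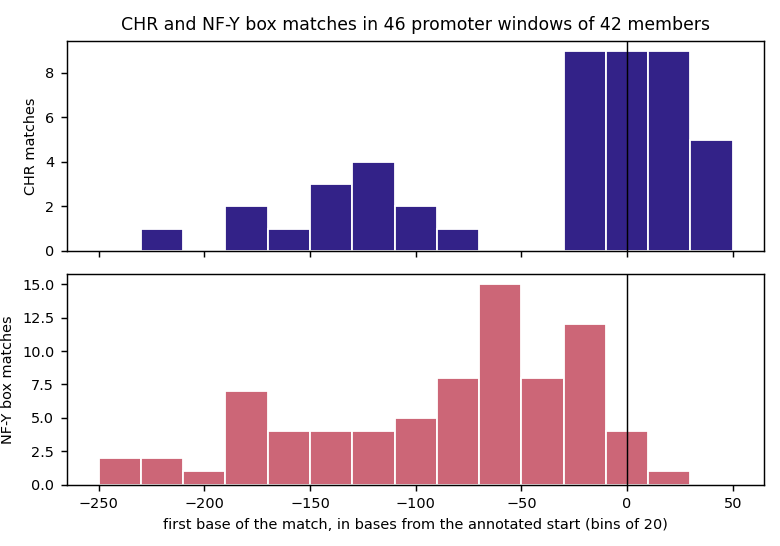
Number of CHR matches (top) and NF-Y box matches (bottom) by distance of the first base from the annotated start, in bins of 20 bases, over 46 windows of 42 members. CHR matches gather around the start, and NF-Y boxes lie mostly ahead of it.

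Medians of the changes are given for members with and without a CHR match as a description. The 32 members with a match were 5.35-fold lower in DM_NOR than in GM_NOR by the median, and the 10 without were 5.85-fold lower. With low oxygen in growth medium the medians were 1.64-fold and 1.69-fold, and the ratio of DM_HYP B to A was 6.09 and 5.98. The 10 without a match were Birc5, Ccnb1, Cenpe, Cenpk, Mad2l1, Mybl2, Nuf2, Nusap1, Plk4 and Pttg1. A match is a description of letters and not of binding, and no match says only that these letters are not in this window.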

How the data were processed

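RNA was measured in 8 libraries of C2C12 cells, from total RNA with a stranded kit per the labels' protocols. STAR 2.5.1b, Cufflinks 2.2.1 and the mm9 build are named in the submitters' processing notes, without their roles. The deposited gene table holds FPKM values by the authors, a unit read from the values. Annotation, use of strand and scaling between libraries are not given in the sources used here, and absolute depth is unknown. The H3K27me3 and input libraries were not analysed here.

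Log2(FPKM + 1) of the 12389 genes with a group mean of 1 FPKM or more in any group was fitted in limma 3.58.1 (R 4.3.3) with 4 group means, an intensity trend and two-sided tests, with Benjamini-Hochberg adjustment over those genes and a threshold of 0.05. The fit has 4 residual and 2.61 prior degrees of freedom and was tested on simulated data. Changes on this scale understate those of low genes. Alternatives were pseudocount, filter, scaling, array weights, replicate block, and fewer libraries. Statistics are given for 14 fixed members and, per comparison, the 2 largest and 2 smallest changes, together with called members where 5 or fewer. The members and lists were chosen with earlier results of these data known. Python 3.11.15 with pandas 2.3.3 read the promoters, which RefSeq gives for GRCm38.p6. No coordinates were taken from mm9.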

Additional observations from a re-analysis of the deposited data

Results flagged for a closer look

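The kinetochore gene Spc24 was flagged because the change with differentiation medium differed between oxygen levels by a test of the difference itself. Its interaction was 2.53 on the log2 scale of FPKM + 1, with a limma adjusted p of 0.0393 over all tested genes. Spc24 was at 16.78 and 17.35 FPKM in GM_NOR, 7.77 and 6.87 in GM_HYP, 2.98 and 3.30 in DM_NOR, and 4.28 and 21.73 in DM_HYP A and B. The 4.28 and 21.73 FPKM of the DM_HYP libraries lie on either side of both GM_HYP values, so the size of the interaction depends on which of them is used.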

How the results depend on the processing

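The count of members called between GM_NOR and DM_NOR was 42 and ranged from 7 to 52 when 1 library was left out. It was 8 without either GM_NOR library, 7 without either DM_NOR library and 52 without either DM_HYP library. Leaving out both DM_HYP libraries and 1 more, an alternative chosen after seeing the data, gave 51 or 52. Every member stayed lower in DM_NOR under the median-of-ratios and upper-quartile scalings. These moved the median change of all tested genes from -0.20 to 0.02 and -0.09, and that of the members from -2.01 to -1.78 and -1.89.

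Between GM_NOR and GM_HYP the count of 0 became 15 with array quality weights, 37 with only the libraries compared and 43 with 6 libraries, and ranged from 0 to 43 with libraries left out. The members' median was -0.67, -0.56 with median-of-ratios and -0.51 with upper-quartile scaling, beside -0.14, -0.04 and 0.00 for all tested genes. Between DM_HYP and GM_HYP the count of 1 became 0 without the filter and with only the libraries compared, and ranged from 0 to 49. Between DM_HYP and DM_NOR the count of 4 became 0 without the filter and with only the libraries compared and 23 with array quality weights, and ranged from 0 to 52. For the interaction the count of 1 became 5 with a pseudocount of 0.1, 0 without the filter and 37 with array quality weights, and ranged from 0 to 52. Median-of-ratios scaling moved the split of all tested genes from 1672 higher and 3463 lower to 2098 and 2753 between GM_NOR and GM_HYP, from 4644 and 3431 to 3763 and 4298 between DM_NOR and DM_HYP, and from 4390 and 2317 to 2979 and 3265 for the interaction. Deviations of same-letter libraries from their group means correlated between -0.166 and 0.042 over all tested genes. With 2 libraries in each group, these values cannot show whether a letter marks a shared day or culture. The replicate block gave 2 members for the interaction and left the other counts within 1.5 times. Crossed pairs, chosen after seeing the data, gave 44 members for GM_HYP against GM_NOR and 0 for DM_HYP against GM_HYP. The cause of these shifts was not tested.

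Among the genes given statistics in each comparison, leaving out 1 DM_HYP library turned the sign for 15 results. Over all 52 members, the change from GM_HYP to DM_HYP was above 0 for 49 without DM_HYP A, beside 7357 of 12389 tested genes. Without DM_HYP B this change was below 0 for 52 members, beside 6096 of 12389 tested genes. For DM_HYP against GM_HYP the log2 change ranged from -1.41 to 1.05 for Mki67, -1.33 to 0.69 for Cdk1, -1.20 to 1.12 for Foxm1, -0.61 to 1.56 for Mybl2, -1.48 to 0.60 for Plk1, -1.27 to 1.59 for Cdc20, -0.99 to 1.68 for Aurkb, -1.49 to 1.02 for Birc5, -1.41 to 0.98 for Bub1b, -1.08 to 1.20 for Ndc80, -1.39 to 0.78 for Kif11, -1.27 to 1.29 for Kif20a and -1.22 to 1.20 for Kif23. For DM_HYP against DM_NOR it ranged from -1.14 to 1.18 for Ccnb1 and from -0.64 to 0.36 for Cdc25b. The number of replicates, 2 in each group, limits every test here.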

Other observations

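Most S-phase genes had lower values in hypoxic growth medium, with 20 of 23 log2 changes below 0, 3 above and a median of -0.62. In the 8-library limma fit 1 rose and 1 fell, beside 28% of all tested genes that fell, and with 6 libraries 2 rose and 18 fell, beside 37.1%. Among the 3 above 0, the cyclin gene Ccne2, which starts S phase, was at 5.36 and 3.92 FPKM in GM_HYP against 2.00 and 1.56 in GM_NOR, and E2f1, the activator of S-phase genes, at 12.28 and 12.96 against 8.61 and 7.83. The thymidine kinase gene Tk1 was at 13.61 and 12.95 FPKM against 47.46 and 39.36, or 30.6% of GM_NOR, lower than any of the 52 mitotic genes by this measure.

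In DM_HYP A, where the mitotic genes were low, E2f1 was at 13.71 FPKM and Pcna, the sliding clamp of DNA replication, at 90.44 FPKM, against 3.49 and 3.44 for E2f1 and 48.43 and 51.47 for Pcna in DM_NOR. In DM_HYP B they were at 19.77 and 156.5 FPKM. These genes were chosen after their values were seen, and no difference between the lists was tested.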
